A study of Mus musculus with 6 samples.

Results

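The genes described here are 37 genes of mitosis and the spindle, taken by symbol from the 23358 entries of a deposited count table. They comprise 8 role groups: 7 cyclins and Cdk1 regulators, 4 spindle checkpoint genes, 4 genes of protein degradation and sister chromatid release, 5 mitotic kinases and passenger proteins, 5 centromere and kinetochore genes, 8 motors and spindle proteins, 2 cytokinesis genes and 2 chromosome genes. The rule takes genes by name and uses no measured value, although the list was drawn up with earlier results of these data known, and all 37 symbols were found as 1 entry each. The study compared wildtype with Ezh2-deficient immature mouse chondrocytes (labelled Ezh2_cKO, strain C57BL/6 - mix) isolated at post-natal day 5. Ezh2 is the catalytic subunit of Polycomb repressive complex 2, which methylates histone H3 and is associated with gene silencing. The cells came from femoral heads, femoral condyles and tibial plateaus, and were kept as micromasses, dense spots of cells used as a cartilage model. All 6 groups, wildtype and Ezh2-deficient at days 3, 7 and 14, had the same medium with 2% serum, insulin, transferrin and selenium, 0.05 mg/mL ascorbic acid and 10 mM β-glycerol phosphate. Each group was 1 library. What drove the deletion, which part of Ezh2 it removed and whether animals were pooled are not given in the sources used here.

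Depth ran from 51985214 to 79323302 counts per library, and every count was even, so a sequenced fragment is taken as 2 counts. Ezh2 itself was measured at 24.7, 40.2 and 27.9 counts per 1000000 (CPM) in wildtype at days 3, 7 and 14, and at 14.7, 23.0 and 17.6 CPM in the Ezh2-deficient libraries, 0.595, 0.573 and 0.630 of wildtype. CPM here uses library sizes adjusted with TMM factors, which assume that most genes do not change. All 37 genes were detected in every library, the lowest with 200 counts and the highest with 29648, and all passed the filter on low counts.

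Cells that enter mitosis accumulate cyclins A and B, which activate Cdk1. The spindle then captures chromosomes at their kinetochores, the checkpoint holds the cell until all are attached, and the anaphase-promoting complex marks cyclin B and securin for destruction so that sister chromatids separate and the cell divides. Transcripts of these genes accumulate late in the cell cycle and are low in resting cells, so that in cartilage they are used as markers of the proliferating chondrocytes of the growth plate. Many such genes carry a cell cycle homology region (CHR) in their promoters, bound by the DREAM and MuvB complexes, with CCAAT boxes, bound by NF-Y, upstream of it.

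RefSeq promoter windows of the GRCm38.p6 build, the assembly also called mm10, covered 250 bases before to 50 bases after each annotated start. They were found for 32 of the 37 genes, as 34 windows, and not for Aurkb, Ccna2, Cdc25c, Kif20a and Tpx2. The stretches below are shown because they hold the CHR and CCAAT letters that were searched for in the windows. Each is 120 bases long and printed 5′ to 3′ on the strand of the gene, and none reaches the transcript. Capitals mark matches to the CHR forms TTTGAA, read as TTCAAA on the opposite strand, and TTTAAA, and to the box CCAAT, read as ATTGG on the opposite strand. Ccnb1 (chr13:100786487-100786606, minus strand), Cdk1 (chr10:69352913-69353032, minus), Cdc20 (chr4:118437344-118437463, minus), Top2a (chr11:99024190-99024309, minus), Ube2c (chr2:164769809-164769928, plus) and Kif11 (chr19:37376262-37376381, plus) are shown from -120 to -1 relative to the start, and Mki67 (chr7:135716460-135716579, minus) from -200 to -81.
Ccnb1: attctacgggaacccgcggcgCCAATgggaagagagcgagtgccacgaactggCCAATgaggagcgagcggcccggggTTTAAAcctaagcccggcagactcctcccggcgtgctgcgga
Cdk1: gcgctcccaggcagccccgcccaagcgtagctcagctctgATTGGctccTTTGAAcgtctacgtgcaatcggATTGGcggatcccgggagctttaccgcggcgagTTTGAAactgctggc
Cdc20: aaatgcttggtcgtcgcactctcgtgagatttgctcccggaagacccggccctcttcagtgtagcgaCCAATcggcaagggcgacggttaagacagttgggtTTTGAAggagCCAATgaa
Top2a: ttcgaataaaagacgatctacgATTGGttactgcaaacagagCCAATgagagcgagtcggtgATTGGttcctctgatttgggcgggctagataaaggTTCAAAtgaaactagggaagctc
Ube2c: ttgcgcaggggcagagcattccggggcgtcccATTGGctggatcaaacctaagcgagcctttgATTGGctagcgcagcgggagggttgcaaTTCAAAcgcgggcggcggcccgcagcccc
Kif11: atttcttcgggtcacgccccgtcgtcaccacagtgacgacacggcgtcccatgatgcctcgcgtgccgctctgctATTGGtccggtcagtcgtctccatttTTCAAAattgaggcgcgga
Mki67: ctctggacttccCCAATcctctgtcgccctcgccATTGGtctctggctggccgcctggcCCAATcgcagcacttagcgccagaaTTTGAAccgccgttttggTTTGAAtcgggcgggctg

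On either strand TTTGAA was found in 26 of the 34 windows (76.5%), against 17.9% of all 32851 RefSeq promoter windows of that length. TTTAAA was found in 9 windows (26.5%, against 13.2%), and either form in 29 (85.3%, against 27.6%). CCAAT was found in 27 windows (79.4%, against 37.4%), and at least 2 copies of it in 19 (55.9%, against 11.7%). A CHR form together with CCAAT stood in 25 windows (73.5%, against 10.7% of all). The 44 CHR matches lay at a median of -16 bases from the start and the 67 CCAAT matches at a median of -68, so that the CCAAT matches tended to lie further upstream, as in the Ccnb1, Top2a and Ube2c stretches above. Nuf2, Nusap1 and Mad2l1 had no match to any of these letters in their windows. Of 73 other mitotic genes listed, 56 had an entry, and TTTGAA was found in 55.6% of their 63 windows. It was found in 9.09% of 22 windows of 20 of the 26 listed genes of G1 and S phase, and in 7.14% of 14 windows of 12 of the 13 core genes of the anaphase-promoting complex, while CCAAT was found in 41, 13 and 7 of these windows. A match is a description of the letters and shows no binding.

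**Figure D1:**
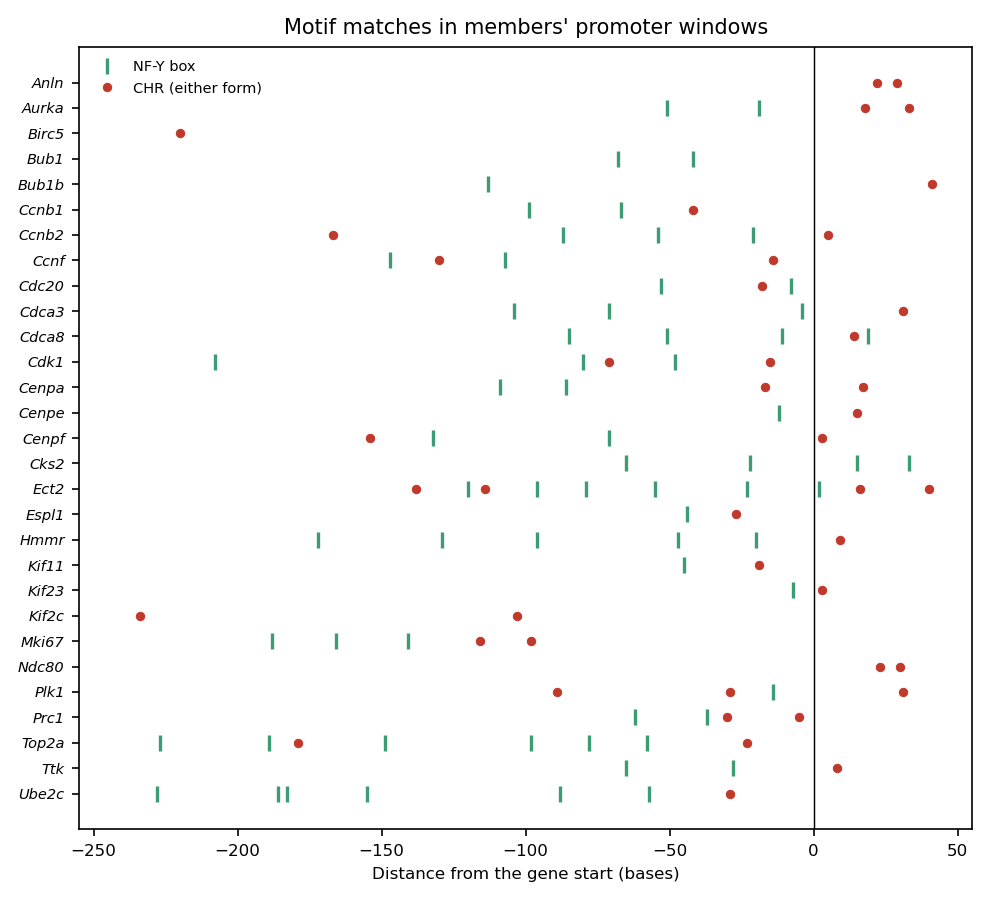
Positions of CHR matches (red dots, TTTGAA or TTTAAA) and CCAAT matches (green ticks, labelled NF-Y box) on either strand in promoter windows, by distance from the annotated start in bases, for the 29 genes with a match. CHR matches gather near the start, with a median of -16, and CCAAT matches mostly lie upstream of them, with a median of -68.

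The 37 genes together peaked at day 7 in both genotypes, but from different starting levels and to different heights. Their summed level was 754 CPM in wildtype and 931 CPM in Ezh2-deficient cells at day 3. At day 7 it was 3131 CPM in wildtype and 1874 CPM in Ezh2-deficient cells. By day 14 it stood at 2099 CPM in wildtype and 816 CPM in Ezh2-deficient cells. The ratio of the Ezh2-deficient to the wildtype sum was thus 1.24, then 0.599, then 0.389. All 37 genes had their highest level in the wildtype day 7 library. The lowest level was in the wildtype day 3 library for 22 genes and in the Ezh2-deficient day 14 library for 15. Every gene was higher in Ezh2-deficient than in wildtype cells at day 3 and lower at days 7 and 14, and its ratio to wildtype fell at each step. From bulk RNA, fewer cells of a type and less RNA per cell cannot be told apart, so these levels do not separate fewer dividing cells from less transcript in each.

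**Figure D2:**
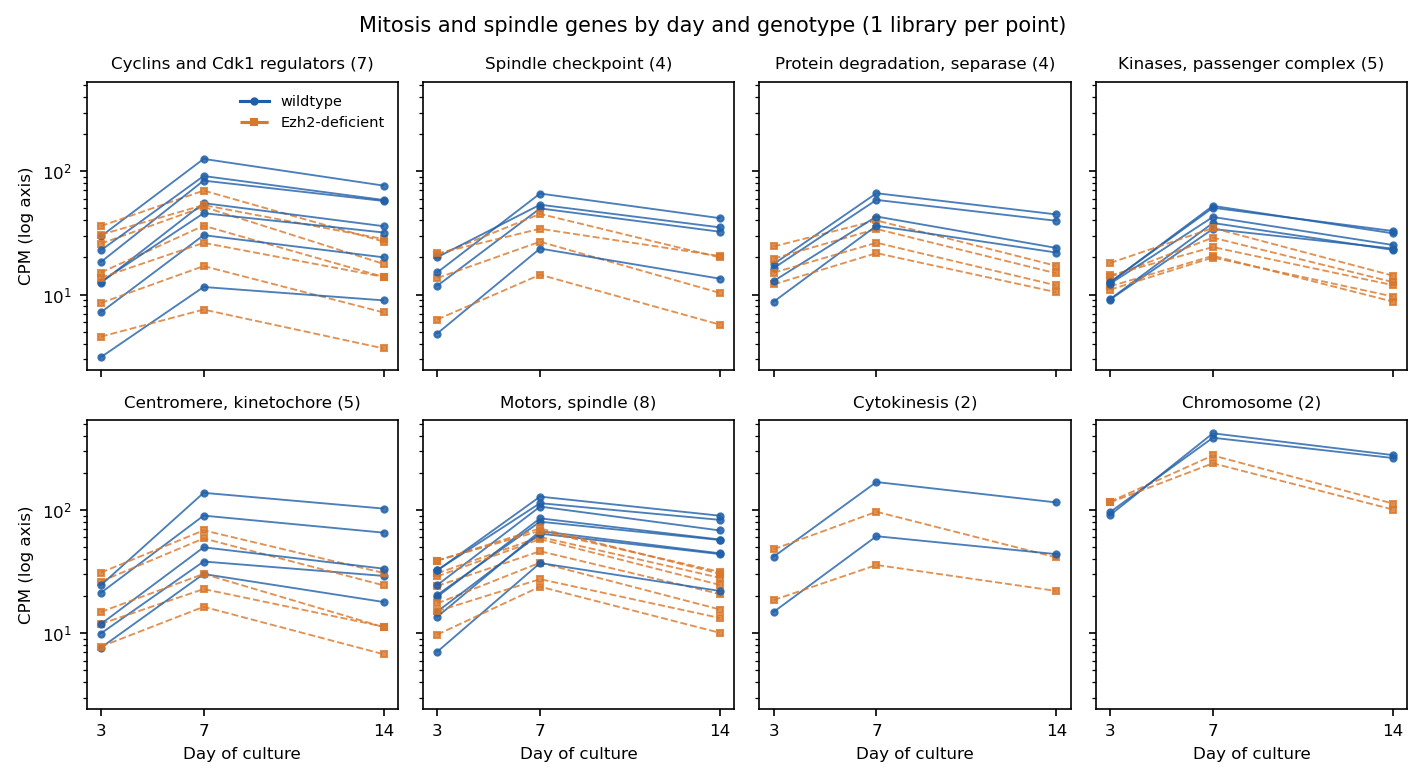
Level of each of the 37 genes in CPM (log axis) against day of culture, 1 panel per role group, with 1 library per point (solid blue, wildtype; dashed orange, Ezh2-deficient). In every panel all lines peak at day 7, and each gene's wildtype line starts below its Ezh2-deficient line at day 3 and stands above it at days 7 and 14.

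With 1 library per genotype and day, each test used the other factor in place of replicates: the 3 days for the genotypes and the 2 genotypes for the days. The p-values for genotype and for day are set against how far the libraries depart from a genotype difference that is the same on every day. That departure holds any change of the difference with day as well as technical spread, and no spread between replicate cultures was measured. Of 16280 genes tested with edgeR's quasi-likelihood test, 19.5% rose from day 3 to day 7 at a Benjamini-Hochberg adjusted p under 0.05. Of the 37 mitotic genes 32 rose, with a median log2 change of 1.45 over all 37 (range 1.02 to 1.78) against -0.02 over all genes tested. The 6 with the smallest p were Kif2c (1.78 ± 0.37 SE, adjusted p = 0.0169), Mad2l1 (1.02 ± 0.22, 0.0194), Ect2 (1.45 ± 0.32, 0.0201), Bub1b (1.57 ± 0.35, 0.0203), Ccnb2 (1.65 ± 0.37, 0.0210) and Ttk (1.69 ± 0.38, 0.0211). The 5 that did not pass were Ccnb1, Cdc25c, Cdc20, Aurka and Prc1, with changes of 1.22 to 1.49 and adjusted p between 0.0515 and 0.0733. None of the 37 passed without the wildtype day 7 library (smallest adjusted p = 0.1003) or without the Ezh2-deficient day 7 library (0.0737).

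In wildtype cells all 37 genes were at least 2-fold higher at day 7 than at day 3 with a counting interval that excluded no change, where 15.8% of all genes were. The median ratio was 4.13, from 2.67 for Mad2l1 to 5.63 for Cenpf. In Ezh2-deficient cells 14 of 37 were at least 2-fold higher, against 13.5% of all genes, with a median ratio of 1.94 and a range of 1.59 (Mad2l1) to 2.45 (Kif2c). With library sizes by total counts only, that number was 33. Total counts also moved the all-gene median of the change from day 3 to day 7, averaged over genotypes, from -0.02 to 0.19 on the log2 scale. From day 7 to day 14 none of the 37 was 2-fold lower in wildtype, where 3.15% of all genes were, and the median ratio was 0.666. Over the same step 33 of 37 were at least 2-fold lower in Ezh2-deficient cells, against 5.78% of all genes, with a median ratio of 0.428. The exceptions were Mad2l1, Ect2, Cks2 and Cdk1, at 0.601, 0.615, 0.529 and 0.529. Across the whole interval, day 14 was at least 2-fold above day 3 for 35 of 37 genes in wildtype (17.8% of all genes), all except Mad2l1 and Ube2c. In Ezh2-deficient cells 0 of 37 were 2-fold higher, where 16.4% of all genes were, and 0 were 2-fold lower, where 9.48% were. There, of the 37, only Ect2, Cks2 and Kif2c were above their day 3 level at all, and the median ratio was 0.869. These single comparisons have no replicate check.

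**Figure D3:**
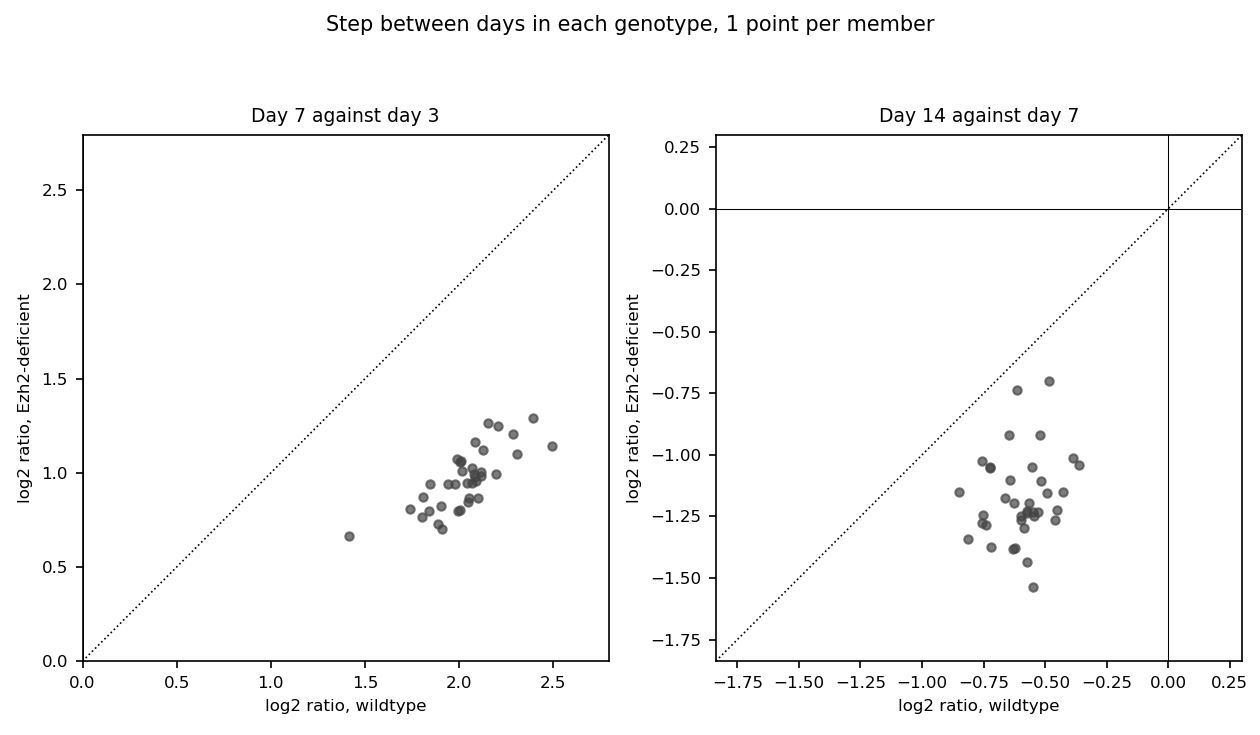
Log2 ratio between days for each of the 37 genes, wildtype on the horizontal and Ezh2-deficient on the vertical axis, for day 7 against day 3 (left) and day 14 against day 7 (right), with the dotted line marking equal values. All points lie below the line in both panels, with medians of 2.05 and 0.96 on the left and -0.59 and -1.22 on the right.

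Averaged over genotypes, the later steps did not pass. The counts below from other tools, or with a library left out, stand without the share of all genes called. They draw no contrast with other genes. From day 7 to day 14 all 37 fitted changes were negative (median -0.85, range -1.04 to -0.58), and 0 passed with edgeR, where 2.29% of all genes fell. At an unadjusted p under 0.05, 11 of the 37 were lower, as were 1882 of all 16280 genes. DESeq2 called 3 (Ttk, Ube2c and Ndc80) and limma-voom 0. That count was 36 without the wildtype day 3 library and also 36 without the Ezh2-deficient day 3 library, and the median was -1.49 without the wildtype day 14 library and -0.34 without the Ezh2-deficient one. From day 3 to day 14 the median was 0.61, and 0 of 37 passed with edgeR, where 23.2% of all genes rose. A single gene, Ect2, was higher at an unadjusted p under 0.05, where 4384 of all 16280 genes were. DESeq2 called 3 (Kif2c, Ect2 and Mki67) and limma-voom 1 (Ect2). Without the Ezh2-deficient day 3 library 37 passed, without the Ezh2-deficient day 14 library 4 did, and without the wildtype day 3 library the median turned to -0.05.

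Averaged over the 3 days, the genotype difference was negative for all 37 genes, with a median log2 difference of -0.61 (range -0.99 to -0.39) against -0.00 over all genes. None passed with edgeR (smallest adjusted p = 0.314), where 0.0123% of all genes were lower in Ezh2-deficient cells. At an unadjusted p under 0.05, 3 of the 37 were lower, Nusap1, Ndc80 and Cks2, as were 1031 of all 16280 genes. DESeq2 called 1 (Nusap1), where it called 1.5% of all genes lower, and limma-voom called 0, where it called 0.0553%. The average joined days of opposite sign. Without the day 3 pair 36 of 37 passed, where 3.04% of all genes did. With the change of the difference with day in the model, only departure from a straight line in log2 day was left as spread between libraries. Then 28 passed, where 2.52% of all genes did. The 3 days are therefore given separately.

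At day 3 the Ezh2-deficient level was a median of 1.21 times the wildtype level. None of the 37 reached 2-fold, where 1.81% of all genes were at least 2-fold higher. The exact 95% counting interval excluded equality for 32 genes, and held it for Mad2l1, Cks2, Birc5, Ndc80 and Nusap1. At day 7 the median ratio was 0.598. Of the 37 genes 2, Nusap1 and Cenpf, were at least 2-fold lower, against 1.68% of all genes. At day 14 the median ratio was 0.385, and 35 of 37 were at least 2-fold lower, against 3.32% of all genes. Mad2l1 and Ect2 were the other two, at 0.586 and 0.503. The intervals excluded equality for all 37 genes at days 7 and 14. They cover counting error only and not the spread between cultures. The share of all genes with such an interval was not counted, so the 32 and the 37 draw no contrast with other genes.

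**Figure D4:**
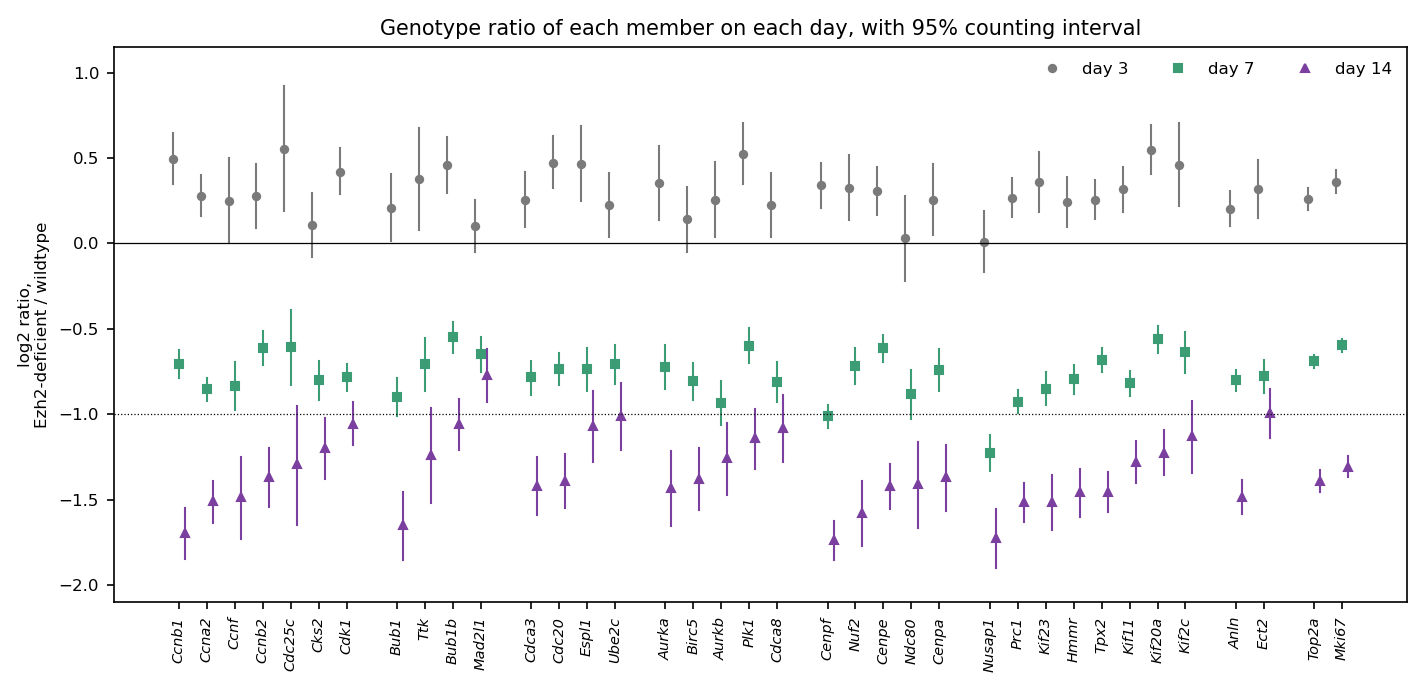
Log2 ratio of Ezh2-deficient to wildtype for each gene at day 3 (grey dots), day 7 (green squares) and day 14 (purple triangles), grouped by role, with exact 95% counting intervals, a solid line at equality and a dotted line at a 2-fold lower level. The day 3 points all lie above 0, with a median of 0.28, and the day 7 and day 14 points all lie below 0, with medians of -0.74 and -1.38.

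The change of the genotype difference with day was tested as the product of genotype and log2 day, with 1 residual degree of freedom. Its p-values and SEs are set against how far the daily differences depart from a straight line in log2 day. No spread between replicate cultures enters them. A value of -1 means that the Ezh2-deficient level dropped by a further log2 unit against wildtype with each doubling of day. All 37 slopes were negative, with a median of -0.76 (range -0.99 to -0.40) against -0.00 over all genes. Of the 37, 24 passed in edgeR at an adjusted p between 0.0439 and 0.0493, where 0.553% of all genes (90) passed with a negative slope. The steepest were Ccnb1 (-0.99 ± 0.07 SE) and Cenpf (-0.94 ± 0.08), and the shallowest were Mad2l1 (-0.40 ± 0.10, adjusted p = 0.177) and Ube2c (-0.56 ± 0.10, 0.0964). All 37 had a negative slope at an unadjusted p under 0.05, as did 1351 of all 16280 genes. The calls sat close to the threshold: 0 genes of the whole table passed with a negative slope when counts were halved to fragments, when genes were kept by a mean of at least 1 CPM or when day itself replaced log2 day, and the smallest adjusted p among the 37 was then 0.0507, 0.0864 and 0.114. DESeq2 called 36 and limma-voom 18. The shares of all genes that these tools called are not given here, so the 36 and the 18 draw no contrast with other genes.

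In the pairs of CPM values that follow wildtype comes first and Ezh2-deficient second, and 3 pairs without days are those of days 3, 7 and 14. Among cyclins and Cdk1 regulators, Ccnb1, cyclin B1, the activator of Cdk1 at entry into mitosis, stood at 18.4 CPM in wildtype and 25.9 CPM in Ezh2-deficient cells at day 3, at 84.2 and 51.5 at day 7, and at 57.6 and 17.7 at day 14. Its log2 ratio went from 0.50 (95% counting interval 0.35 to 0.64) through -0.71 (-0.79 to -0.63) to -1.70 (-1.85 to -1.55), so the intervals of the 3 days did not overlap. Cdk1, the kinase itself, measured 22.8 and 30.6 CPM at day 3, 91.8 and 53.3 CPM on day 7, and 58.6 and 28.2 CPM on day 14, again wildtype first. Its ratios at days 7 and 14 were 0.581 and 0.482, closer to each other than those of Ccnb1 at 0.612 and 0.309. Ccna2, cyclin A2, which acts in S phase and in early mitosis, had the most counts of the group, with 29.6 and 36.0 CPM at day 3, 126 and 69.9 CPM on day 7, and 76.7 and 26.9 CPM on day 14. Ccnb2 went from 12.4 and 15.1 CPM to 55.3 and 36.2 and then to 35.9 and 13.9. Both cyclins were lowest in one of the outer libraries, wildtype day 3 for Ccnb2 and Ezh2-deficient day 14 for Ccna2. Cks2, a small Cdk-binding protein and the group's highest gene per length, had 12.7 and 13.7 CPM at day 3, 45.8 and 26.3 CPM on day 7, and 31.9 and 13.9 CPM on day 14. Cdc25c, a phosphatase that activates Cdk1, had the fewest counts of the group, with 3.09 and 4.55 CPM at day 3, 11.5 and 7.55 CPM on day 7, and 8.96 and 3.65 CPM on day 14. Its day 3 ratio of 1.46 was the highest of the 37, with a wide log2 interval of 0.19 to 0.92. In the group 5 of 7 rose from day 3 to day 7, and the slope with day passed for Ccnb1, Ccnb2 and Ccna2, while Cdk1 (-0.68 ± 0.11, adjusted p = 0.0792), Ccnf, Cks2 and Cdc25c did not pass.

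In the spindle checkpoint group, Mad2l1, which encodes the Mad2 protein that restrains Cdc20, had 20.1 CPM in wildtype and 21.5 in Ezh2-deficient cells at day 3, 53.7 and 34.2 CPM on day 7, and 35.1 and 20.5 CPM on day 14. The Ezh2-deficient day 14 level was thus about that of both day 3 libraries, and its log2 ratio of -0.77 (-0.93 to -0.62) at day 14 overlapped that of day 7, -0.65 (-0.75 to -0.55). Bub1b, encoding the checkpoint protein BubR1, went from 15.1 and 20.8 CPM through 66.1 and 45.2 to 41.7 and 20.0. At day 7 its ratio of 0.684 was the highest of the 37. Ttk, the Mps1 checkpoint kinase, measured 4.82 and 6.27 CPM at day 3, 23.6 and 14.5 CPM on day 7, and 13.4 and 5.69 CPM on day 14. Bub1, another checkpoint kinase, had a day 14 ratio of 0.319. All 4 rose from day 3 to day 7, and the slope passed for Bub1 and Bub1b.

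In the degradation group, Ube2c, the ubiquitin-conjugating enzyme of the anaphase-promoting complex, had 12.9 CPM in wildtype and 15.0 in Ezh2-deficient cells at day 3, 43.0 and 26.4 CPM on day 7, and 23.9 and 11.9 CPM on day 14. Its step from day 7 to day 14 was -0.98 on average over genotypes, with the smallest p of the 37 for that step (adjusted p = 0.123). Cdc20, the activator of the complex, Cdca3, a factor in the destruction of the Wee1 kinase, and Espl1, separase, which cleaves cohesin, followed with day 14 ratios of 0.382, 0.375 and 0.477. Of the 4, Cdca3, Espl1 and Ube2c rose from day 3 to day 7, and the slope passed for Cdc20 and Cdca3.

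Among kinases and passenger proteins, Plk1, the Polo kinase of centrosome maturation and mitotic entry, stood at 12.5 and 18.0 CPM at day 3, 52.5 and 34.7 CPM on day 7, and 31.4 and 14.2 CPM on day 14, wildtype first. Cdca8, borealin, a scaffold of the chromosomal passenger complex and the highest of the group per length, had 12.2 and 14.3 CPM, then 42.7 and 24.3, then 25.3 and 11.9. Aurkb, the kinase of that complex, Birc5, survivin, another of its subunits, and Aurka, the centrosomal Aurora kinase, had day 14 ratios of 0.419, 0.385 and 0.371. The Ezh2-deficient day 14 level was close to the wildtype day 3 level for Cdca8 and Birc5, whose 2 values were 11.9 and 12.2 CPM and 12.6 and 12.6 CPM. Of the 5, all except Aurka rose from day 3 to day 7, and the slope passed for Plk1, Aurka and Birc5.

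Among centromere and kinetochore genes, Cenpf, a large protein of the outer kinetochore, had 24.5 CPM in wildtype and 31.0 in Ezh2-deficient cells at day 3, 138 and 68.5 CPM on day 7, and 103 and 30.9 CPM on day 14. Its wildtype rise of 5.63-fold from day 3 to day 7 was the largest of the 37, and its day 14 ratio of 0.3002 the smallest. Cenpe, the kinesin that moves chromosomes to the spindle equator, went from 21.3 and 26.3 CPM through 90.2 and 58.9 to 65.6 and 24.5. Cenpa, the histone H3 variant that marks centromeres and the highest of the group per length, had 9.95 and 11.9 CPM, then 38.2 and 22.9, then 29.2 and 11.3. Ndc80 and Nuf2, partners in the complex that binds microtubules, had day 3 ratios of 1.02 and 1.25, with overlapping intervals, and day 14 ratios of 0.378 and 0.335. All 5 rose from day 3 to day 7, and the slope passed for all except Ndc80.

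In the group of motors and spindle proteins, Nusap1, which bundles spindle microtubules, had 15.0 CPM in wildtype and 15.1 in Ezh2-deficient cells at day 3, 64.4 and 27.5 CPM on day 7, and 43.9 and 13.3 CPM on day 14. Its ratio was the lowest of the 37 at day 3 (1.01) and at day 7 (0.427), and the day 7 log2 interval of -1.33 to -1.12 did not overlap that of the next lowest gene, Cenpf, at -1.08 to -0.94. Tpx2, a spindle assembly factor that activates Aurora A, went from 32.5 and 38.8 CPM through 114 and 71.0 to 83.3 and 30.4. Prc1, which crosslinks microtubules in the midzone and was the highest of the group per length, had 32.3 and 39.0 CPM, then 129 and 67.8, then 90.03 and 31.5. Kif2c, a kinesin that takes microtubules apart, measured 7.07 and 9.74 CPM at day 3, 37.2 and 23.9 CPM on day 7, and 22.0 and 10.1 CPM on day 14. The remaining 4 were Kif11, which pushes spindle poles apart, Kif20a and Kif23, kinesins of the midzone, and Hmmr, a spindle-associated protein, with day 14 ratios of 0.412, 0.428, 0.350 and 0.364. Except for Prc1 all 8 rose from day 3 to day 7, and except for Kif2c all had a slope that passed.

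In the cytokinesis group, Anln, anillin, a scaffold of the contractile ring, had 41.8 CPM in wildtype and 48.1 in Ezh2-deficient cells at day 3, 169 and 97.0 CPM on day 7, and 115 and 41.2 CPM on day 14. Ect2, an activator of RhoA at the cell equator, had 14.9 and 18.6 CPM, then 61.4 and 35.8, then 43.9 and 22.0. Both rose from day 3 to day 7, and the slope passed for Anln (-0.76 ± 0.07) and not for Ect2 (-0.60 ± 0.11, adjusted p = 0.104), whose Ezh2-deficient day 14 level stayed above its day 3 level. The 2 chromosome genes had the most counts of the 37. Mki67, the proliferation antigen Ki-67 that coats mitotic chromosomes, had 91.1 and 117 CPM, then 421 and 278, then 280 and 113. Top2a, the topoisomerase that untangles sister DNA, had 96.3 and 115 CPM, then 387 and 240, then 265 and 101. For each of the pair the Ezh2-deficient day 14 level lay between its 2 day 3 levels. Both rose from day 3 to day 7 and had a slope that passed (-0.75 ± 0.07 and -0.74 ± 0.07, adjusted p = 0.0439).

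Per length, in the authors' RPKM (reads scaled by gene length and library size), Top2a was highest with a mean of 32.1 over the 6 libraries, followed by Cks2 (28.8), Ube2c (19.8), Ccna2 (18.1) and Mki67 (18.0). Espl1 was lowest at 2.32. Top2a ranged from 14.3 RPKM in the wildtype day 3 library to 64.6 in the wildtype day 7 library, so the spread over libraries was larger than the gap to Cks2 (14.2 to 57.5).

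The spread of the 37 ratios can be set beside their counting error. The standard deviation of the log2 ratio over the 37 was 0.14, 0.14 and 0.22 on the 3 days, beside 0.38, 0.44 and 0.50 over all genes at 1 CPM or more. The median half-width of the 95% counting interval was 0.18, 0.10 and 0.17. A 95% half-width is larger than a standard error, so it is not on the scale of the standard deviation and draws no contrast between days. The counting interval of a gene held the median of the 37 for 28 genes at day 3, 20 at day 7 and 18 at day 14. At day 3 it lay below the median for 2 genes and above it for 7. At day 14 the 8 genes whose interval lay below the median were Ccnb1, Ccna2, Bub1, Cenpf, Nuf2, Nusap1, Prc1 and Anln, and 11 lay above it, among them Cdk1, Bub1b, Mad2l1, Ube2c, Plk1, Ect2 and Mki67. Across the 37 genes the log2 ratios of days 3 and 7 had a Pearson correlation of 0.58 (Spearman 0.53), those of days 7 and 14 one of 0.51 (0.48), and those of days 3 and 14 one of 0.16 (0.18). These are descriptions over genes that share their libraries and are not independent.

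Other genes of the cell cycle were taken from fixed lists. Of 71 further mitotic genes (73 listed, with Ska2 and Ska3 not found by symbol), 45 rose (19.5% of all genes did) and 1, Rcc2, fell from day 3 to day 7. A negative slope passed for 20 of them (0.553% of all genes), with a median slope of -0.65. At day 14, 48 of them were at least 2-fold lower in Ezh2-deficient cells, as were 3.32% of all genes. Those with the smallest p for the slope were Aspm (-0.90 ± 0.08), a spindle pole protein, Ckap2 (-0.83 ± 0.07), a microtubule-associated protein, and Ncapg (-0.83 ± 0.09) and Kif4 (-0.85 ± 0.09), which act in chromosome condensation. Of 26 genes of G1 and S phase, 12 rose (against 19.5% of all genes) and 1, Ccnd2, fell from day 3 to day 7, and the slope passed for 1, Rrm2, the small subunit of ribonucleotide reductase (-0.77 ± 0.09), with a median of -0.38. Rrm2 had 40.3 and 53.7 CPM at day 3, 118 and 68.6 CPM on day 7, and 75.4 and 30.9 CPM on day 14. For 13 core genes of the anaphase-promoting complex, the summed ratio of Ezh2-deficient to wildtype was 0.995, 0.990 and 0.994 on the 3 days, the median slope was -0.05 and 0 slopes passed in edgeR (1, Anapc13, at an unadjusted p under 0.05).

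Of 22 regulators of late cell cycle transcription, 7 rose from day 3 to day 7 (against 19.5% of all genes) and the slope passed for 1, Foxm1, the forkhead factor that binds with MuvB at CHR promoters (-0.66 ± 0.08, adjusted p = 0.0480). Foxm1 had 15.0 and 19.7 CPM at day 3, 53.6 and 36.9 CPM on day 7, and 36.1 and 17.2 CPM on day 14, peaking in the library where the 37 genes peaked. E2f8 (-0.77 ± 0.10, adjusted p = 0.0542) and E2f7 (-0.74 ± 0.12, 0.0750), repressors of the E2F family, did not pass, and neither did Mybl2 (-0.52 ± 0.12, 0.173), the B-Myb partner of MuvB. The DREAM subunits Lin9, Lin37, Lin52, Lin54 and Rbl2 and the NF-Y subunits had slopes between -0.23 and 0.14. The median slope of the list was -0.05.

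Among 7 inhibitors of cyclin-dependent kinases no slope passed in edgeR (3 at an unadjusted p under 0.05). Cdkn1a, encoding p21, had 402 CPM in wildtype and 409 in Ezh2-deficient cells at day 3, 171 and 216 CPM on day 7, and 407 and 638 CPM on day 14. It fell from day 3 to day 7 (-1.09, adjusted p = 0.00634). From day 7 to day 14 it rose (1.41, adjusted p = 0.0141). Its level was lowest at day 7 in both genotypes, where the mitotic genes were highest. Cdkn1a was picked after its values were seen. Of the 7 inhibitors, 4 rose from day 3 to day 7 and only Cdkn1a fell. A link between Cdkn1a and the mitotic genes was not tested. Cdkn2a, of the Ink4a and Arf locus and a known Polycomb target, had 0.667 and 1.05 CPM, then 7.35 and 13.0, then 21.8 and 25.5. It rose from day 3 to day 7 (3.55, adjusted p = 0.000501) and again to day 14 (1.27, adjusted p = 0.0218), and its genotype difference of 0.55 did not pass (adjusted p = 0.269). Cdkn1c, encoding p57, had 488 and 784 CPM, then 573 and 348, then 182 and 127, a change of sign between day 3 and day 7 like that of the mitotic genes, with a slope of -0.56 ± 0.18 that did not pass (adjusted p = 0.277).

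**Figure D5:**
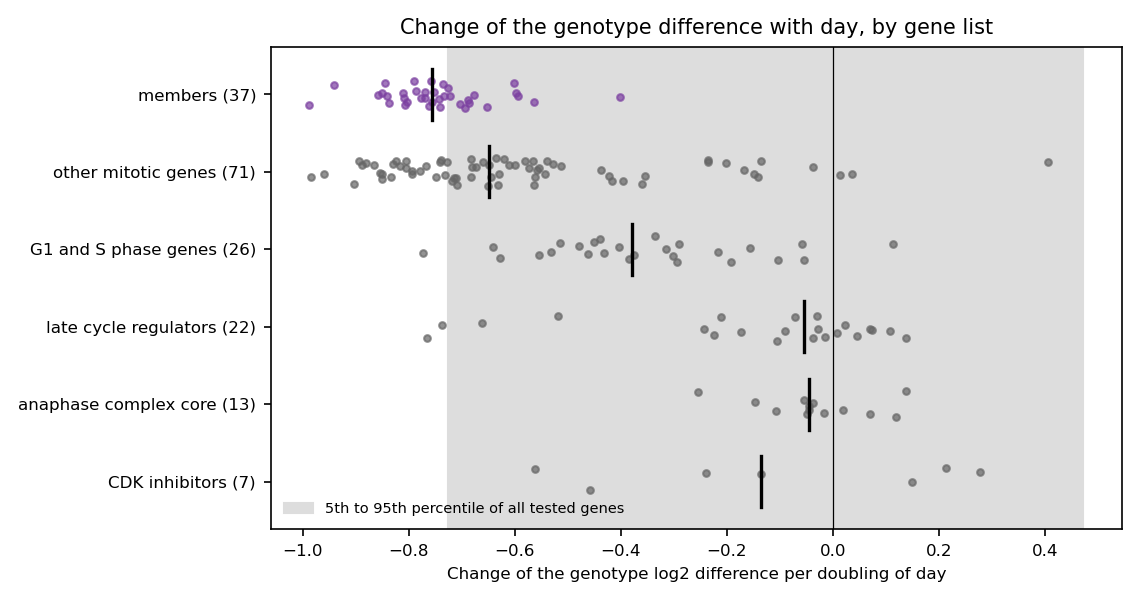
Change of the genotype log2 difference per doubling of day for each gene (dots), by list, with the median of each list as a black bar and the range from the 5th to the 95th percentile of all tested genes in grey. The medians run from -0.76 for the 37 genes and -0.65 for other mitotic genes through -0.38 for G1 and S phase genes to -0.05 for the late cycle regulators and the core of the anaphase-promoting complex.

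The genes whose log2 CPM over the 6 libraries was most like the mean of the 37 were, in order, Dlgap5, Kntc1, Aspm, Ncapg, Kif4, Ncapd2, Kif15, Cdca2, Smc2 and Ckap2l, with Pearson correlations from 0.9998 down to 0.998, among 11067 genes with a mean of 5 CPM or more. All 10 were on the list of other mitotic genes. Among the 100 most alike, which exclude the 37 genes described here, 37 were on that list. Dlgap5 had 8.19 and 10.3 CPM at day 3, 37.9 and 21.3 CPM on day 7, and 23.5 and 9.01 CPM on day 14. The 37 genes themselves correlated with their mean at 0.976 (Ect2) to 0.999 (Top2a). Each gene is part of that mean, so high values are partly built in. With 6 libraries these are descriptions.

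Markers of several cell types moved with the same libraries. The summed level of 9 chondrocyte markers, Col2a1 and Acan among them, ran from 37026 to 131478 CPM in wildtype and from 22879 to 127431 CPM in Ezh2-deficient cells, falling in order of day, and was 0.969, 0.697 and 0.618 of wildtype at days 3, 7 and 14. That of 8 osteoblast markers ran from 861 to 44546 CPM in wildtype and from 1403 to 95929 CPM in Ezh2-deficient cells, with ratios of 1.63, 1.22 and 2.15. The sums weigh the most abundant markers most, and the median ratio over the 8 osteoblast markers was 1.76, 2.12 and 1.84. The 9 macrophage markers ran from 70.2 to 985 CPM and from 59.2 to 1150 CPM, the 6 fibroblast markers from 1268 to 8721 CPM and from 1480 to 7403 CPM, both lowest at day 3. Smooth muscle (5 markers) ran from 70.4 to 339 CPM in wildtype and from 186 to 500 CPM in Ezh2-deficient cells, and adipocyte (5) from 12.6 to 157 and from 71.1 to 315 CPM, both highest at day 7 like the mitotic genes. Endothelial markers (5) summed to at most 6.27 CPM, with Emcn at 0 in the Ezh2-deficient day 14 library and Lep, an adipocyte marker, at 0 in the wildtype day 3 library. Xist, a transcript of the inactive X chromosome, had 1065, 1130 and 1223 CPM in wildtype and 842, 677 and 513 CPM in Ezh2-deficient cells at days 3, 7 and 14, and Ddx3y, on the Y, had 49.0, 33.1 and 31.8 against 67.0, 63.7 and 82.0 CPM, so on each day Xist was lower and Ddx3y higher in the Ezh2-deficient library. Both gaps widened from day 3 to day 7 and from day 7 to day 14. Among 5 listed sex-linked genes 4 slopes with day were positive and 1 negative, all at an unadjusted p under 0.05 in edgeR. Of all 16280 genes 815 and 1351 were. None of the 5 passed (smallest adjusted p = 0.0562). The part of these markers and of the sex-linked genes in the results on the 37 genes, the slope with day included, was not tested.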

How the data were processed

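Gene counts came from 1 table for 6 RNA libraries, deposited by the authors as whole counts per gene beside RPKM values. The labels and file headers do not give the annotation or the strandedness, which are not given in the sources used here. CASAVA 1.9, TopHat 12.0.6 and HTSeq, and the mm10 build, are named in the submitters' processing notes without role or order. The RPKM values were used as deposited by the authors, only to compare levels between genes. No column lacked a sample.

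Samples were grouped by genotype and day from the titles. Counts were fitted in R 4.3.3 with edgeR 4.0.16 (quasi-likelihood, two-sided, Benjamini-Hochberg adjusted over 16280 of 23358 genes kept with a minimum count of 10, threshold 0.05, prior count 2, TMM factors 0.935 to 1.09). The additive model of genotype and day had 2 residual degrees of freedom, and that with genotype by centred log2 day had 1. Both were fitted to the deposited counts, not to halved counts. A single pair of libraries was called at 2-fold or more with at least 1 CPM in the higher library and an exact 95% interval that excluded equality, with 2 counts as a fragment. Such intervals cover counting error only. The scripts were tested on simulated data.

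Values in every library were given for the gene with the highest RPKM of each role, for Mki67, Top2a, Cdk1, Ccnb1 and Plk1, for the extremes of the ratios and slopes, and for up to 6 genes per test with the smallest p among those that passed. From other lists up to 4 genes with the smallest p, and any that passed, were named. Further regulators, Cdkn1a, Cdkn1c, Cdkn2a, marker sums, Xist and Ddx3y were named outside this rule after their values were seen. Alternatives were other scaling factors, filters, prior counts and fold limits, halved counts, robust dispersion, DESeq2 1.42.0, limma-voom (limma 3.58.1), the further model term, day in place of log2 day and leaving out libraries. The genes and lists were chosen with earlier results of these data known.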

Additional observations from a re-analysis of the deposited data

Results flagged for a closer look

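The genotype difference changed with day, by the product of genotype and log2 day in edgeR's quasi-likelihood test, for 24 of the 37 genes, where 0.553% of all 16280 genes passed with a negative slope. That fit used the deposited counts, taken as 2 per fragment. None of the 37 passed when counts were halved to fragments (smallest adjusted p = 0.0507), with a mean of at least 1 CPM (0.0864) or with day itself (0.114). The change per doubling of day was -0.99 for Ccnb1, -0.94 for Cenpf, -0.81 for Ccna2, -0.79 for Nusap1, -0.78 for Cenpe, -0.77 for Tpx2, -0.76 for Anln, -0.76 for Plk1, -0.75 for Mki67 and -0.74 for Top2a. Outside the 37, it was -0.77 for Rrm2 and -0.66 for Foxm1. In each of these 12 genes the Ezh2-deficient level was above wildtype at day 3 and below it at days 7 and 14. The 12 were picked for a passing slope of this same difference, so its fall is no further evidence.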

How the results depend on the processing

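Among the single genes and the counts of the 37 genes, the sign of the genotype difference, of the steps from day 3 to 7 and from day 7 to 14 and of the slope held under all alternatives run. The counts below stand without the share of all genes called in the same setting, so they draw no contrast with other genes. That share moves with the setting: for lower by genotype it was 0.0123% in the main fit and 2.52% with the further term. The number lower by genotype (0) was 1 with DESeq2, 28 with the further term and 0 to 36 when leaving out a day. The number higher at day 7 (32) was 0 to 37 when leaving out a library. The number lower from day 7 to 14 (0) was 3 with DESeq2, 37 with the further term and 0 to 36 without a library, with medians from -1.49 to -0.34. The number higher from day 3 to 14 (0) was 3 with DESeq2, 1 with limma-voom, 36 with the further term and 0 to 37 without a library, with medians from -0.049 to 1.30. For this last comparison the change without a library ran from -0.0047 to 1.30 for Top2a, -0.048 to 1.29 for Cdk1, -0.27 to 1.42 for Ccnb1, -0.19 to 1.20 for Plk1, -0.049 to 1.43 for Nusap1 and -0.039 to 0.77 for Mad2l1. It was negative without the wildtype day 3 library for all 6, and without the wildtype day 14 library for Ccnb1 (-0.24) and Plk1 (-0.06). The number with a passing slope (24) was 0 with a mean of at least 1 CPM, 0 with counts halved and 0 with day itself, and 18 to 36 otherwise. Its cause was not tested, and the slope could not be refitted without a library. By fold, the number lower at day 7 (2) was 1 with RLE factors, 1 with total counts and 35 at 1.5-fold. The number higher at day 7 in Ezh2-deficient cells (14) was 33 with total counts and 37 at 1.5-fold, and that lower from day 7 to 14 in wildtype (0) was 19 at 1.5-fold. The additive model compares the genotypes within days, and no block by replicate number could be added because the labels give none. Depth allowed all 37 genes to be measured, with at least 200 counts each, and the absence of replicates limits every comparison.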
